A study of Rattus norvegicus with 4 samples.

Results

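The genes described here mostly encode subunits of respiratory complexes III and IV and of ATP synthase, measured as messenger RNA in INS-1 832/3 cells. They were chosen by gene name: every symbol that begins with Uqcr, Cox4 to Cox8, Atp5, Mt-co or Mt-atp, together with Cyc1 and Mt-cyb, at a mean of at least 1 TPM over the 4 samples. The names fitted 50 of the 23360 symbols in the files, and 43 of these 50 passed the minimum. Of the 43, 10 belong to complex III, 15 to complex IV and 18 to ATP synthase. The mitochondrial genome encodes 6 of them and the nuclear genome 37. These counts go by name and include Atp5if1, an inhibitor of ATP synthase, Cox7a2l, an assembly factor, and Cox7a2l2, whose role is not assigned here.

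INS-1 832/3 is a rat insulinoma line that secretes insulin and carries a human insulin gene. The control group was cells in standard monolayer (2D), and the other group was cells bioprinted in GelXA LAMININK 411, a hydrogel that contains laminin (3D), with 2 biological replicates in each. Both were kept in the same serum-containing medium for 5 days and harvested at passage 3. Only the 3D cells were extruded in a printer and had their gel crosslinked with UV light. The comparison thus addresses printing, UV exposure and hydrogel culture together, and these cannot be told apart. The cells come from a single tumour line, so the spread between samples is that between cultures and not between animals.

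Respiration passes electrons from NADH and succinate through ubiquinone to complex III, then through cytochrome c to complex IV, where they reduce oxygen. The protons pumped on the way drive ATP synthase, in which a membrane rotor (Fo) turns a catalytic head (F1). In beta cells the ATP made from glucose closes potassium channels and so triggers insulin release. Complexes III and IV and ATP synthase are each a mosaic: 1 or a few subunits are transcribed in the mitochondrion, and all other subunits are transcribed in the nucleus and imported.

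TPM is a transcript abundance that is corrected for transcript length and adds up to 1000000 in each sample, so that levels can be set side by side between genes, but they keep no sequencing depth and no counting error can be attached. All levels below are TPM as deposited. Each log2 fold change is 3D minus 2D on log2(TPM + 1) after scaling between samples, which understates changes of genes with low TPM, and the adjusted p is that of limma's moderated test with Benjamini-Hochberg adjustment over the 11960 genes tested. A gene is called where this adjusted p is below 0.05. The smallest two-sided p of an exact permutation test in this design is 0.333, and the calls therefore depend on limma pooling the variance of many genes. The beta-cell identity of the samples was visible in Ins1 (114003 and 126460 TPM in 2D, 127527 and 137822 TPM in 3D) and Iapp (11094 and 10467 TPM, 12300 and 13260 TPM). The summed markers of acinar and duct, endothelial, fibroblast and immune cells stayed between 0.516 and 8.25 TPM per list in every sample. Cpa1, Pnlip, Cdh5, Dcn and Ptprc were listed at 0 throughout, but other markers of the same lists were not. The highest of the acinar and duct list was Ctrb1 (6.49 and 7.45 TPM in 2D, 5.75 and 5.77 TPM in 3D). Those of the other lists were Kdr (0.965 and 1 TPM, 1.27 and 1.48 TPM), Pdgfra (1.9 and 1.87 TPM, 2.32 and 2.24 TPM) and Cd68 (0.789 and 0.516 TPM, 0.863 and 1.45 TPM). Of 7 alpha, delta and PP cell markers only glucagon (Gcg) was tested, and it was higher in 3D culture, at 124 and 155 TPM against 41.9 and 73.8 TPM.

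The nuclear and mitochondrial genes of these complexes lay on opposite sides of 0. All 37 nuclear genes had a negative log2 fold change, with a median of -0.38 (0.77 of the 2D level) and a range from -1.40 to -0.13. All 6 mitochondrial genes had a positive one, with a median of 0.27 and a range from 0.12 to 0.49, while the median over all genes tested was 0. Of the nuclear genes 32 (86.5%) were called lower and 0 higher, where 19.5% of all genes tested were called lower and 18.5% higher. At an unadjusted p the count of nuclear genes higher was also 0, since none had a positive fold change. Of the mitochondrial genes 1 was called higher and 0 lower. After scaling between samples, both 3D values lay below both 2D values in 36 of the 37 nuclear genes, a separation found in 38.2% of all genes tested. They lay above both in all 6 mitochondrial genes, which was found in 37.3% of all genes tested. The calls depended on having both 3D samples. With 3D replicate 1 left out 0 nuclear genes were called lower, and with 3D replicate 2 left out 2 were, when 31 and 487 of all genes were called lower. Every fold change kept its sign in both cases.

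**Figure D1:**
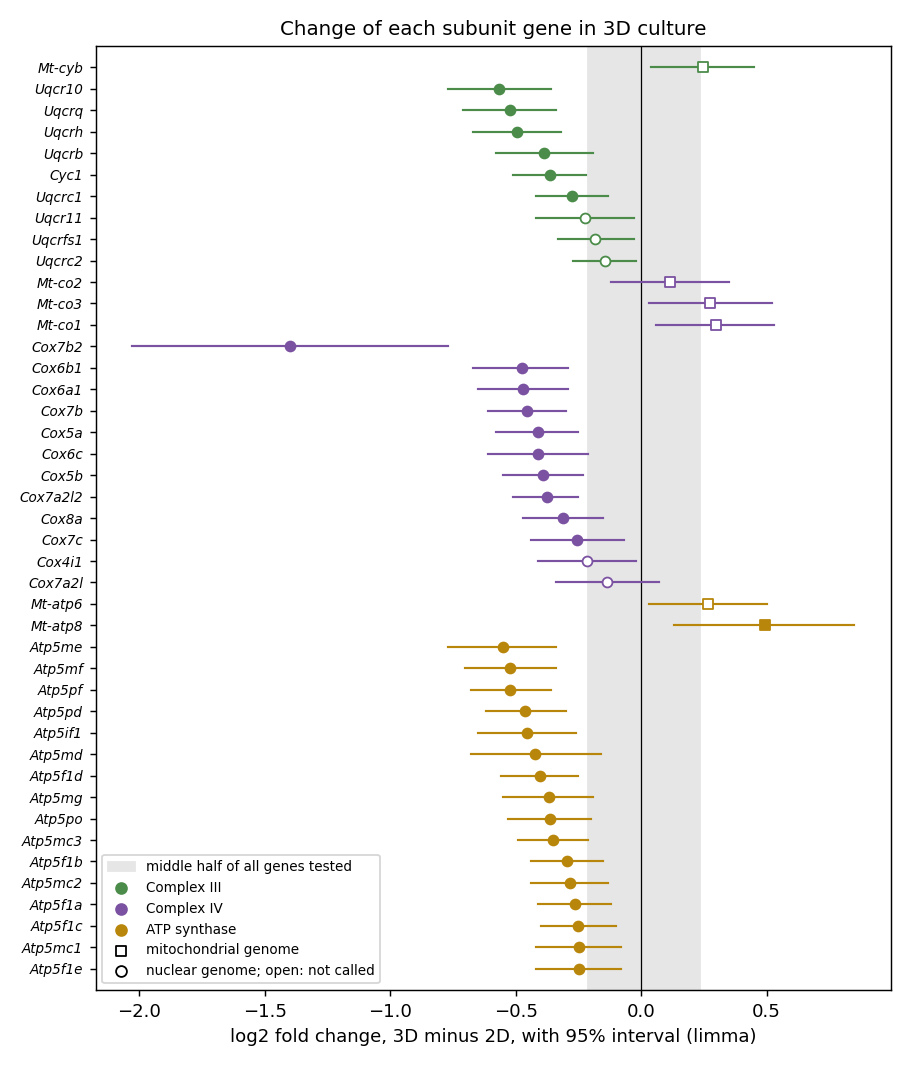
Log2 fold change (3D minus 2D) of each of the 43 genes, with its 95% confidence interval from limma, coloured by complex. Squares are mitochondrial and circles nuclear genes, filled where the adjusted p was below 0.05, and the grey band runs from the lower to the upper quartile of all genes tested (-0.21 to 0.24). The squares lie to the right of 0 and all circles to the left.

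The same split was present in each complex. Complex III had 6 of 9 nuclear genes called lower with a median log2 fold change of -0.36, complex IV had 10 of 12 with a median of -0.40, and ATP synthase had 16 of 16 with a median of -0.37. The share called lower among all genes tested was 19.5%. The summed nuclear TPM of complex III was 2131 and 2240 in 2D and 1738 and 1715 in 3D, 0.79 of the 2D mean. That of complex IV was 10280 and 10507 in 2D and 8263 and 8293 in 3D, a ratio of 0.797. That of ATP synthase was 13686 and 14283 in 2D and 11065 and 10815 in 3D, a ratio of 0.782. The nuclear sums of all 3 complexes were thus lower in both 3D samples and by nearly equal factors, with all 37 genes together at 26563 ± 660 TPM (SD, n = 2) in 2D and 20945 ± 172 TPM (SD, n = 2) in 3D.

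The mitochondrial sums went the other way in every complex. Mt-cyb of complex III was at 1.22 of its 2D mean. The 3 mitochondrial genes of complex IV summed to 32643 and 31202 TPM in 2D and 39011 and 38106 TPM in 3D, a ratio of 1.21. The pair of ATP synthase genes summed to 42828 and 37320 TPM in 2D and 58127 and 52974 TPM in 3D, a ratio of 1.39. Together the 6 genes had 78053 ± 5182 TPM (SD, n = 2) in 2D and 101509 ± 4353 TPM (SD, n = 2) in 3D. No test was made on these sums, since the genes were chosen together.

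**Figure D2:**
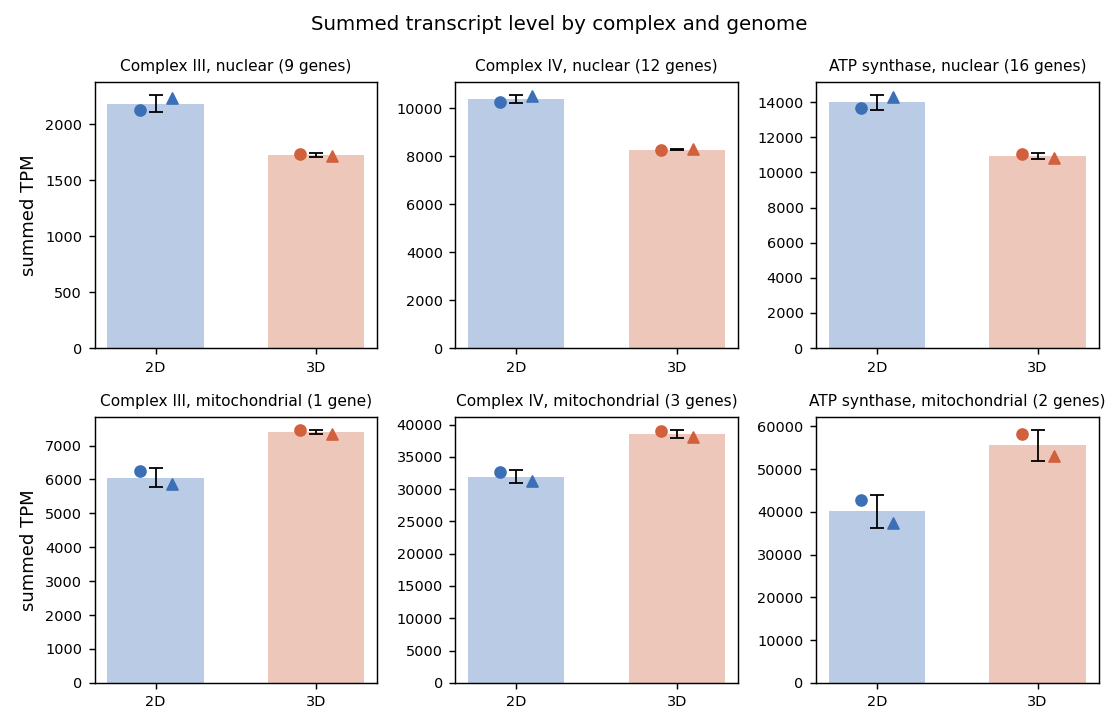
Summed TPM of the nuclear genes (upper row) and mitochondrial genes (lower row) of complex III, complex IV and ATP synthase. Bars are group means, error bars are the SD of 2 samples, and points are the samples (circle, replicate 1; triangle, replicate 2). In all 3 nuclear panels both 3D samples lie below both 2D samples, and in all 3 mitochondrial panels both lie above.

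Because TPM share a fixed total, a larger mitochondrial share leaves less for all other genes. All 13 mitochondrial genes that encode proteins took 10.1% and 9.35% of TPM in 2D and 13% and 12.3% in 3D. With mitochondrial transcripts taken out, the remainder rescaled to 1000000 and the samples scaled as before, 32 of the 37 nuclear genes were again called lower. The main fit had already scaled between samples, so this count could hardly differ and does not bear on the fixed total. The ratio of mitochondrial to nuclear TPM within a sample, which no scaling can change, was 3.13 and 2.75 in 2D and 4.96 and 4.73 in 3D. Without Mt-atp8, the most abundant of the 43 transcripts, it was 1.94 and 1.80 in 2D and 2.89 and 2.88 in 3D. By complex the ratio in 3D was 1.54 times that in 2D for complex III, 1.52 times for complex IV and 1.77 times for ATP synthase. The ATP synthase ratio includes Mt-atp8, which held a mean of 28430 of 40074 mitochondrial TPM in 2D and 41100 of 55551 in 3D. It was not computed without Mt-atp8. The libraries were made from polyadenylated RNA, and mitochondrial messengers carry short poly(A) tails, so their level here also depends on their capture, whose part in the difference was not tested.

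Mitochondrial genes encode the 3 core subunits of complex IV and the cytochrome b of complex III. Mt-co1 carries the haem and copper site where oxygen is reduced, and it had 8238 and 7227 TPM in 2D and 9975 and 9597 TPM in 3D (log2 fold change 0.30, adjusted p = 0.054). Mt-co2, which takes electrons from cytochrome c, had 10623 and 10735 TPM in 2D and 11931 and 11932 TPM in 3D, the smallest difference of the 6 (0.12, 95% confidence interval -0.12 to 0.35, adjusted p = 0.356). Mt-co3, the third core subunit of complex IV, had 13781 and 13240 TPM in 2D and 17105 and 16578 TPM in 3D (0.27, adjusted p = 0.0741). The 3D samples were higher for all 3, and none passed the threshold. Mt-cyb, the cytochrome b of complex III that binds ubiquinol, had 6246 and 5866 TPM in 2D and 7448 and 7351 TPM in 3D (0.25, adjusted p = 0.06).

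ATP synthase has a pair of mitochondrial subunits in its membrane part. Mt-atp6 forms the proton channel beside the rotor, and it had 11672 and 11617 TPM in 2D and 14478 and 14423 TPM in 3D (log2 fold change 0.27, adjusted p = 0.0728). Mt-atp8, a short subunit of the stator, rose from 31157 and 25703 TPM in 2D to 43649 and 38551 TPM in 3D (0.49, 95% confidence interval 0.13 to 0.85, adjusted p = 0.0456). Mt-atp8 was the only mitochondrial gene called. Its reading frame overlaps that of Mt-atp6 on a shared messenger, and its short length makes few reads weigh much in TPM, so reads could be divided between them in either way. The ratio of Mt-atp8 to Mt-atp6 was 2.67 and 2.21 in 2D and 3.01 and 2.67 in 3D. Without scaling between samples 5 of the 6 mitochondrial genes were called higher, and with each sample left out in turn 0 were.

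**Figure D3:**
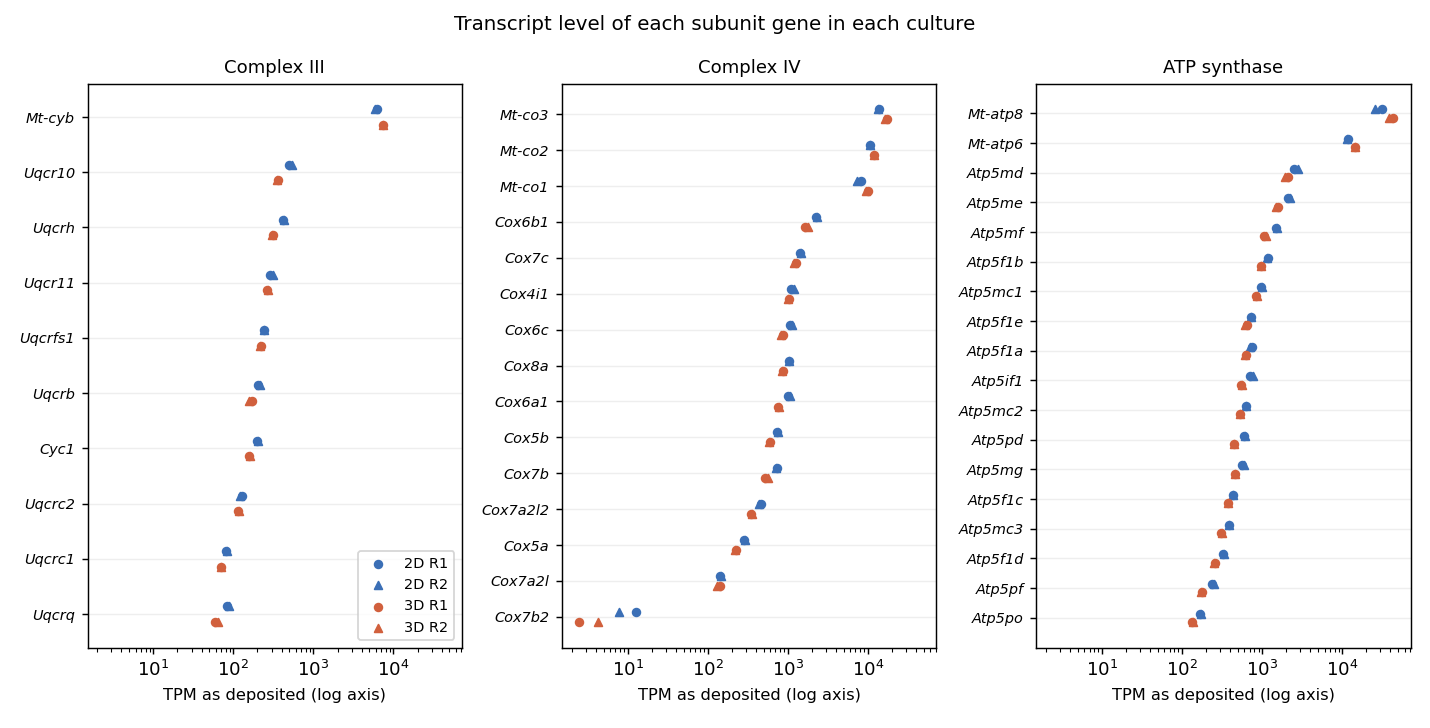
TPM as deposited, on a log axis, of each gene in each of the 4 samples, by complex and in order of mean level. Blue marks are 2D and orange marks 3D (circle, replicate 1; triangle, replicate 2). Mitochondrial genes stand at the top of each panel with orange to the right of blue, and nuclear genes below them have orange to the left, apart from Cox7a2l, whose marks overlap.

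Nuclear genes of complex III fell most among its small accessory subunits. Uqcr10, which lies beside the cytochrome c1 and iron-sulfur subunits, had 489 and 538 TPM in 2D and 358 and 354 TPM in 3D (log2 fold change -0.57, standard error 0.0827, adjusted p = 0.00769). Uqcrq, which binds near cytochrome b, had 83.6 and 89.1 TPM in 2D and 59.5 and 63.9 TPM in 3D (-0.52, adjusted p = 0.00748). Uqcrh, the hinge protein between cytochrome c1 and cytochrome c, had 414 and 434 TPM in 2D and 317 and 304 TPM in 3D (-0.49, adjusted p = 0.00754). In each of the 3 the groups were far apart compared with the spread within them. Uqcrb and Cyc1, the cytochrome c1 itself, were also called lower, with log2 fold changes of -0.39 and -0.36, and so was the core protein Uqcrc1 (-0.27).

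The 3 nuclear genes of complex III that missed the threshold were all below their 2D level in both 3D samples. Uqcrfs1, the Rieske iron-sulfur protein, had 241 and 244 TPM in 2D and 223 and 217 TPM in 3D (log2 fold change -0.18, 95% confidence interval -0.33 to -0.03, adjusted p = 0.0623). Uqcrc2, the other core protein, had 129 and 122 TPM in 2D and 115 and 118 TPM in 3D (-0.15, interval -0.27 to -0.02, adjusted p = 0.0698). Uqcr11, a small accessory subunit, had 290 and 315 TPM in 2D and 266 and 268 TPM in 3D (-0.22, interval -0.42 to -0.03, adjusted p = 0.0692). The intervals of these 3 genes reach near 0 and do not show that they were the same in both cultures. Both transcripts of Uqcrb were lower in 3D, at 128 and 137 TPM against 112 and 96.3 TPM and at 76.1 and 76.3 TPM against 59.1 and 61.3 TPM. Among RefSeq entries that share a name with a member are pseudogene copies of Uqcr10, of Uqcrb and of Cox6b1. These 3 levels are uncertain where reads could be divided between copies. Copies under other names were not searched for, so the limit may hold for other genes as well.

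In complex IV the largest fold change belonged to its rarest member. Cox7b2, a paralogue of the accessory subunit Cox7b that is best known from testis, fell from 12.6 and 7.86 TPM in 2D to 2.46 and 4.24 TPM in 3D (log2 fold change -1.40, 95% confidence interval -2.03 to -0.77, adjusted p = 0.0122). On the log2 scale its samples differed by more within each group than those of other members. Cox7b2 made up 1.71% and 1.09% of the summed Cox7b and Cox7b2 TPM in 2D and 0.47% and 0.748% in 3D. Without it the range of the nuclear genes ended at -0.57 and their median was -0.37. Cox6b1, which faces the intermembrane space and lies where the monomers of the complex IV dimer meet, fell from 2276 and 2312 TPM to 1629 and 1773 TPM (-0.48, adjusted p = 0.00939). The files hold 2 transcripts of Cox6b1, and both were lower in 3D, at 1849 and 1875 TPM against 1292 and 1443 TPM and at 428 and 436 TPM against 337 and 330 TPM. Cox6a1, an accessory subunit at the same dimer contact, fell from 1011 and 1059 TPM to 753 and 785 TPM (-0.47, adjusted p = 0.00846). Cox7b, Cox5a, Cox6c, Cox5b, Cox8a and Cox7c were called lower as well, with log2 fold changes from -0.45 to -0.25.

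Of the 12 nuclear genes of complex IV, 2 were not called. Cox4i1, the accessory subunit through which ATP and ADP act on the enzyme, had 1105 and 1182 TPM in 2D and 1022 and 1007 TPM in 3D. It had a log2 fold change of -0.22 (95% confidence interval -0.41 to -0.02, adjusted p = 0.0777), and its 3D samples were both below its 2D samples. Cox7a2l is an assembly factor of the supercomplex that joins complexes III and IV rather than a standard subunit, and it was the only nuclear gene whose groups overlapped, with 142 and 147 TPM in 2D and 143 and 129 TPM in 3D (log2 fold change -0.13, interval -0.34 to 0.07, adjusted p = 0.228). The gene listed as Cox7a2l2, whose role is not assigned here, fell from 459 and 434 TPM to 349 and 359 TPM (log2 fold change -0.38, adjusted p = 0.007). Cox7a2, the usual form of this subunit, was not among the symbols that fitted the names.

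Several complex IV subunits come in paralogues used by different tissues, and the widely expressed forms Cox4i1, Cox6a1, Cox6b1 and Cox8a were the abundant ones in both cultures. Cox4i2, the form associated with lung and low oxygen, was listed at 0 in 3 samples and at 0.0913 TPM in 3D replicate 2. Cox6a2, the heart and muscle form, had 0.277 and 0.151 TPM in 2D and 1.70 and 1.14 TPM in 3D, and lay just under the minimum mean of 1 TPM, so it was not tested. Even in 3D it was 0.226% and 0.145% of the summed Cox6a1 and Cox6a2 TPM. Cox7a1, another muscle form, had 0.277 and 0.302 TPM in 2D and 0.241 and 0.574 TPM in 3D, with overlapping groups. Cox6b2, Cox8b, Cox8c and the pseudogene Cox6c-ps1 were listed at 0 in all 4 samples.

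In ATP synthase all 16 nuclear genes measured were called lower. Atp5pb, the b subunit of the peripheral stalk, was not among the symbols that fitted the names. The largest falls were in small subunits of the membrane part and the stalk that holds the head still. Atp5me, the subunit e at which ATP synthase dimers meet, fell from 2107 and 2248 TPM to 1575 and 1488 TPM (log2 fold change -0.55, standard error 0.0859, adjusted p = 0.00899). Atp5mf, subunit f of the same membrane region, fell from 1492 and 1540 TPM to 1053 and 1122 TPM (-0.52, adjusted p = 0.00693). Atp5pf, the coupling factor F6 of the peripheral stalk, fell from 238 and 248 TPM to 176 and 172 TPM (-0.52, adjusted p = 0.00584). Atp5if1, the inhibitor that stops the enzyme from breaking down ATP when the membrane potential is lost, fell from 706 and 761 TPM to 551 and 553 TPM (-0.45, adjusted p = 0.0108). Its ratio to the catalytic subunit Atp5f1b, which had a log2 fold change of -0.30, was 0.597 and 0.672 in 2D and 0.563 and 0.573 in 3D. The ratio was lower in both 3D samples, and it was not tested.

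Within ATP synthase the membrane accessory subunits and the 3 measured genes of the peripheral stalk had medians of -0.47 and -0.46 on the log2 scale, and the F1 head with its central stalk and the c ring had medians of -0.26 and -0.28. In complex III the 5 accessory subunits had a median of -0.49, the pair of nuclear catalytic subunits -0.27 and the pair of core proteins -0.21. These differences between places in a complex were not tested, since subunits are not replicates of a condition. The c ring is built from identical copies of a mature protein that 3 genes encode. Atp5mc1 made up 48.8% and 49.5% of their summed TPM in 2D and 50.3% and 50.2% in 3D, Atp5mc2 31.7% and 31.5% against 31.5% and 31.4%, and Atp5mc3 19.5% and 19% against 18.2% and 18.4%. The mixture of the 3 genes was thus close to that in 2D while each gene was called lower, Atp5mc1 at -0.25, Atp5mc2 at -0.28 and Atp5mc3 at -0.35.

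**Figure D4:**
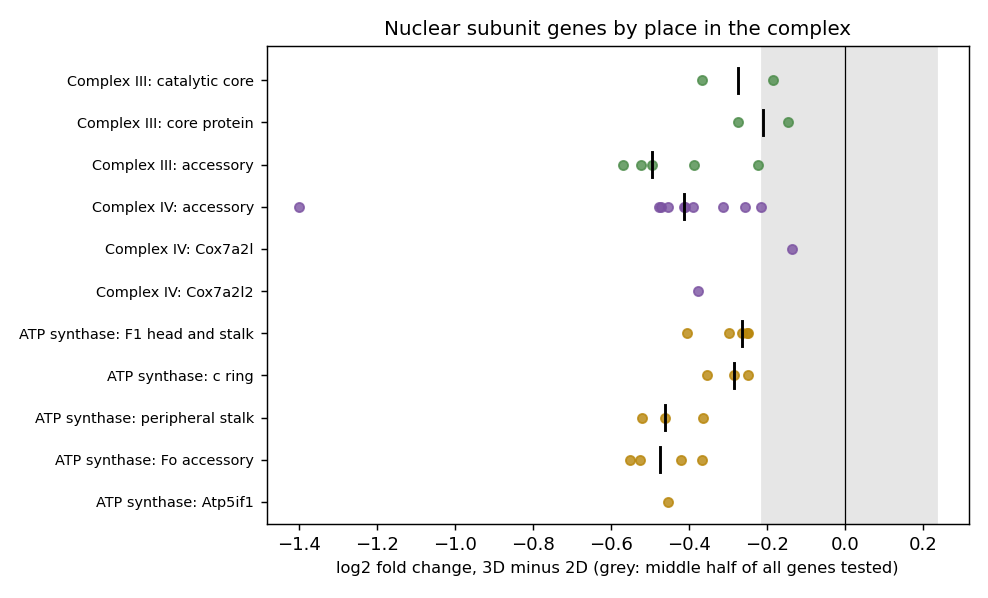
Log2 fold change (3D minus 2D) of each of the 37 nuclear genes, grouped by the place of its subunit, with a black bar at the median of each group that holds more than 1 gene. The grey band runs from -0.21 to 0.24, the quartiles of all genes tested. Every point lies left of 0, and the medians of accessory and stalk subunits lie left of those of the complex III core, the F1 head and the c ring.

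Promoters of nuclear respiratory genes are known for sites of the factors NRF1, GABP (of the ETS family) and YY1. RefSeq promoters of GRCr8, from 250 bases before to 50 after the annotated start, were matched for 31 of the 37 nuclear genes, and 19 of the 31 held at least 1 of 3 motifs on either strand. The letters CGCANGCGC (NRF1) were in 9 of the 31 (29.0%), where 14.6% of the promoters of tested genes and 5.75% of all promoters held them. CCGGAAG (ETS) was in 11 (35.5%), against 19.0% and 8.75%, and AAGATGGC (YY1) was in 6 (19.4%), against 6.12% and 3.17%. The GC box GGGCGG was in 11 (35.5%), against 65.5% and 33.1%. A palindromic NRF1 match can be read on both strands, and each promoter was counted once. The sequences of the most changed nuclear gene of each complex, together with Cox6b1 as the most changed abundant gene of complex IV, are shown so that these runs of letters can be seen in place, with matches to the first 3 motifs in capitals and all other bases in lower case. Uqcr10 is at chr14:83791865-83792164 on the minus strand, Cox7b2 at chr14:37046831-37047130 on the plus strand, Cox6b1 at chr1:95009803-95010102 on the minus strand and Atp5me at chr14:1464610-1464909 on the plus strand.
Uqcr10: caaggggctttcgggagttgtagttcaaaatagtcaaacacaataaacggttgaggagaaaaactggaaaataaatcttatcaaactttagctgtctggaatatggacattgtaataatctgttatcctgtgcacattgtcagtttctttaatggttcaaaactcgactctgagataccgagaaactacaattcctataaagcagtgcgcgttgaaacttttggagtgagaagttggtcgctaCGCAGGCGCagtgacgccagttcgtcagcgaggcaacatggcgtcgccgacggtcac
Cox7b2: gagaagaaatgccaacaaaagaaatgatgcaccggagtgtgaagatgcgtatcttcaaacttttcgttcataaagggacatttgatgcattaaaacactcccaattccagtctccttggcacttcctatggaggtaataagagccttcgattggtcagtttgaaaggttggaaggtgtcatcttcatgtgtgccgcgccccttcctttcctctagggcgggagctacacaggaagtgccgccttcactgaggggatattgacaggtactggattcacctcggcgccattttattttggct
Cox6b1: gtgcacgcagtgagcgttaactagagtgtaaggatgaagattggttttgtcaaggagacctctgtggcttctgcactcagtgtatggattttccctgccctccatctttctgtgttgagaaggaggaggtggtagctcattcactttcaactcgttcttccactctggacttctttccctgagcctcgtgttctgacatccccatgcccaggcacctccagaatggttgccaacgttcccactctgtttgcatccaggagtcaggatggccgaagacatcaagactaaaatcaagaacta
Atp5me: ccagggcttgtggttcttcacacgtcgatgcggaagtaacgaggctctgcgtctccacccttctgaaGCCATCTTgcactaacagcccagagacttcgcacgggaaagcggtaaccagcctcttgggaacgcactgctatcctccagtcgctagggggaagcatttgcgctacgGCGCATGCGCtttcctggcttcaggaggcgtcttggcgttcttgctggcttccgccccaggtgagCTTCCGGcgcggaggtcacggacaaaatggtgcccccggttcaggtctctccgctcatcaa
Atp5me held all 3 motifs, with the ETS letters at position -11 and the YY1 letters at -183 from the start, Uqcr10 held the NRF1 letters at -7, and Cox7b2 and Cox6b1 held none. A match is a run of letters and not a measured binding site.

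The transcription of these genes is governed by a small set of nuclear regulators, of which 11 were tested: 2 were called higher and 1 lower, with a median log2 fold change of 0.11 against 0 over all genes tested. These counts are no larger than the 18.5% of all genes called higher and 19.5% called lower would give, so they are no result about the list. Ppargc1a, the coactivator known for switching on mitochondrial biogenesis, rose from 1.02 and 0.714 TPM in 2D to 3.54 and 2.94 TPM in 3D (log2 fold change 1.16, adjusted p = 0.00568). Its 2D mean of 0.866 TPM was under the minimum mean of 1 TPM, and it entered the test only through its 3D values. Its relative Pprc1 rose from 25.4 and 22.4 TPM to 31.6 and 31 TPM (0.34, adjusted p = 0.0154). The regulator called lower, named after its values were seen, was Esrra, a nuclear receptor that works with Ppargc1a, from 49.7 and 50.3 TPM to 41.7 and 44.6 TPM (-0.25, adjusted p = 0.0292). The called regulators thus included genes on both sides. Of 24 genes for mitochondrial RNA synthesis and turnover 5 were called lower and 1 higher, with a median of -0.08, and the count called lower was near the background of 19.5%. Rexo2, an exonuclease that clears short RNAs in mitochondria, fell from 112 and 107 TPM to 72.9 and 77.3 TPM (-0.58, adjusted p = 0.0041), and Tfb1m, which methylates the mitochondrial ribosomal RNA, from 18.3 and 17.5 TPM to 12.9 and 13.7 TPM (-0.44, adjusted p = 0.0078).

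The other parts of the respiratory chain showed a like split. Of 37 nuclear genes with complex I names, among them Ndufa4 and Ndufa4l2, 28 were called lower and 1 higher, with a median log2 fold change of -0.33. Of 7 mitochondrial complex I genes 5 were called higher and 0 lower, with a median of 0.31. Among all genes tested 19.5% were called lower and 18.5% higher. Ndufb6 and Ndufa11, accessory subunits of complex I, fell by 0.53 each on the log2 scale, and Mt-nd5, a proton-pumping subunit, rose from 1091 and 951 TPM to 1506 and 1426 TPM (0.48, adjusted p = 0.00927). Complex II, which is wholly nuclear, had 3 of 4 genes called lower, with a median of -0.23. Cycs, the cytochrome c that carries electrons from complex III to complex IV, fell from 325 and 314 TPM to 242 and 247 TPM (log2 fold change -0.43). Ndufa4, chosen after its values were seen because its protein is now placed in complex IV despite its name, fell from 582 and 619 TPM to 469 and 478 TPM (-0.39). Its paralogue Ndufa4l2, chosen in the same way, was the nuclear gene of that list called higher, from 2.34 and 2.75 TPM to 3.88 and 3.77 TPM (0.41, adjusted p = 0.0409).

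Separate factors assemble these complexes without staying in them. Of 6 complex III factors 3 were called lower and 1 higher (median log2 fold change -0.35), of 21 complex IV factors 9 lower and 1 higher (-0.22), and of 5 ATP synthase factors 0 in either direction in limma, with 0 also at an unadjusted p under 0.05 (-0.02). Over all genes tested 19.5% were called lower and 18.5% higher. Bcs1l, which inserts the Rieske protein into complex III, fell from 9.83 and 8.58 TPM to 5.59 and 6.15 TPM (-0.61, adjusted p = 0.00726). Cmc2, a factor for complex IV, fell from 162 and 189 TPM to 96.1 and 114 TPM (-0.78, adjusted p = 0.00909). The difference between these lists and the subunits was not tested.

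Genes of cell division moved in the same direction as the nuclear subunit genes. All 12 proliferation genes of the list were called lower in 3D, with a median log2 fold change of -0.39, and their summed TPM was 1274 and 1227 in 2D and 950 and 975 in 3D. Mcm3, a part of the replicative helicase, and Cdk1, the kinase that starts mitosis, had log2 fold changes of -0.61 and -0.55. The part of cell division in the subunit result was not tested. Of 14 beta-cell genes 3 were called higher and 1 lower, with a median of 0.05, where 18.5% of all genes were called higher and 19.5% lower. Among them Abcc8, the sulfonylurea receptor of the potassium channel that ATP closes, rose from 80.1 and 72.9 TPM to 143 and 137 TPM (0.82, adjusted p = 0.00349). The gene called lower, named after its values were seen, was the insulin gene Ins2, from 13237 and 13340 TPM to 8957 and 9326 TPM (-0.58, adjusted p = 0.00945). In samples of many cells, a lower level in each cell and fewer cells of a kind cannot be told apart.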

How the data were processed

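RNA of 2 monolayer and 2 bioprinted cultures was sequenced from stranded poly(A) libraries as single-end reads. The authors quantified transcripts with Salmon 1.2 after FastQC 0.11.8 against rn4 with the human insulin gene added, per the submitters' notes and the methods, and deposited TPM, written with decimal commas and entered as another unit in an automated check that reads points only. The count-based test of the methods was not repeated, since TPM do not carry counts. The TPM of 31201 transcripts were summed per symbol into 23360 symbols, of which 11960 reached a mean of 1 TPM and entered the test. Scaling between samples used the trimmed mean of M values without weights, computed on these genes (at each end 30% of M and 5% of A were left out, factors 0.96 to 1.02). In R 4.3.3, limma 3.58.1 was fitted to log2(TPM + 1), its empirical Bayes step followed the intensity trend, and p-values had Benjamini-Hochberg adjustment. The script was first tested on simulated data. Groups were taken from the sample labels.

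Named genes were all mitochondrial members, the 3 largest falls per complex among called nuclear genes, every nuclear gene not called, the paralogue families and Atp5if1, and up to 2 genes with the smallest p of each list, with further genes named where stated or in counts. The members and lists were chosen with earlier results of these data known. Alternatives were the scaling, filter, pseudocount, trend, transcript choice, replicate block, threshold and each sample left out. Promoters are those of RefSeq GRCr8, used for names, promoter sequences and their coordinates alone. Precision is that of 2 cultures per group, since depth is unknown from TPM.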

Additional observations from a re-analysis of the deposited data

How the results depend on the processing

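No member changed the sign of its log2 fold change under any of the alternatives, and the count of nuclear genes called higher stayed at 0 throughout. The count of nuclear genes called lower (32) was 16 at an adjusted p below 0.01, with 6 of 12 in complex IV and 6 of 16 in ATP synthase. It ran from 0 to 35 with each sample left out in turn (0 to 8 in complex III, 0 to 11 in complex IV, 0 to 16 in ATP synthase). The lowest values came without a 3D sample, where the lone 3D sample is assumed to vary like the 2D samples. The count of nuclear genes called lower was 28 with no filter on low values and 29 with empirical Bayes without the trend. Atp5f1e, Atp5mc1 and Cox7c were not called in either of these fits or with the replicate block. The count of mitochondrial genes called higher (1) was 5 without scaling between samples, 5 with empirical Bayes without the trend, 3 at a mean TPM of at least 5 and 3 with a pseudocount of 0.1. It was 0 with no filter on low values, 0 with the highest transcript in place of the sum, 0 at an adjusted p below 0.01, 0 with each sample left out in turn and 0 with the trimmed mean taken over all genes above 0, an alternative chosen after seeing the data. The cause of these changes was not tested.

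With the replicate number as a replicate block, 29 nuclear genes were called lower, 0 mitochondrial genes were called higher, and the count of genes of the respiratory lists called higher was 7 in place of 11. The replicate numbers gave no sign of a pairing: across genes, samples that share a number deviated from their group means with a correlation of -0.00601. Over all genes, 2366 were called lower and 2439 higher under the block. The sums given above are as deposited, and their log2 ratio was 0.29 for mitochondrial complex III and 0.27 for mitochondrial complex IV. After scaling between samples these were 0.25 and 0.23. The scaled log2 ratio for nuclear complex IV was -0.37, and it ran from -0.42 to -0.32 with each sample left out in turn. Of all genes tested, without 3D replicate 1, 31 were called lower and 105 higher, and without 3D replicate 2, 487 and 583, against 2334 and 2209. TPM keep no depth, so counting error could not be separated from the spread between cultures.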

Other observations

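Of the 43 genes, 5 had more than 1 transcript in the files, and within 2 of them a minor transcript had higher values in 3D while the main one had lower values. For Atp5f1c, the gamma subunit that turns inside the F1 head, the main transcript ENSRNOT00000064802.3 had 415 and 417 TPM in 2D and 357 and 349 TPM in 3D, a log2 ratio of -0.28 after scaling. The minor transcript ENSRNOT00000090453.1 had 11.3 and 11.9 TPM in 2D and 15.7 and 16.7 TPM in 3D, a log2 ratio of 0.41, and its share of the gene was 2.63% and 2.76% in 2D and 4.17% and 4.53% in 3D. For Atp5f1d, the delta subunit of the central stalk, the minor transcript ENSRNOT00000077301.1 had 6.91 and 6.52 TPM in 2D and 8.26 and 7.88 TPM in 3D (0.19), while the main one was at -0.42. The groups of both minor transcripts did not overlap, and neither was tested, as the fit was made per gene. Both were chosen after their values were seen.

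Among complex IV genes, the ratio of Mt-co2 to Mt-co1 within a sample was 1.29 and 1.49 in 2D and 1.2 and 1.24 in 3D. These catalytic subunits come from a shared precursor RNA, and the ratio was lower in both 3D samples. The ratio was not tested.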
